A study of Homo sapiens with 12 samples.

Results

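The genes described here are 10 regulators of entry into mitosis, taken by symbol from a table of 60671 genes. They are the cyclins CCNA2, CCNB1 and CCNB2, the kinase CDK1, the kinase WEE1 and the phosphatases CDC25B and CDC25C that act on CDK1, the kinase PLK1, and the transcription factors FOXM1 and MYBL2. Each symbol matched 1 row, and all 10 passed the minimum of a mean of 1 FPKM over the 12 libraries (FPKM divide the fragments of a gene by its length and by the library total, so levels of different genes can be set side by side). RNA was measured in 4 groups of 3 libraries, all labelled as Jurkat, a human line from a T cell leukemia, and all harvested after 48 h. The NC+DMSO group was control cells in solvent, which the labels call WT and the methods describe as carrying the pHIV7 vector that expresses GFP from the SFFV promoter. The PTPN21+DMSO group carried a lentiviral PTPN21 construct with a FLAG tag, read from the same SFFV promoter, and received DMSO. The NC+VCR and PTPN21+VCR groups were the same pair of cell populations treated with vincristine (VCR), a drug that blocks the assembly of microtubules. The labels give no VCR dose for these libraries.

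Entry into mitosis is driven by CDK1, a kinase that is active only when bound to a cyclin. Cyclin A2 serves S and G2 phase, and cyclins B1 and B2 serve the passage into and through mitosis, after which they are degraded. WEE1 places an inhibitory phosphate on CDK1, CDC25B and CDC25C remove it, and PLK1 pushes the balance towards activation by acting on both WEE1 and CDC25C. The genes of the late cell cycle are switched on by MYBL2 (B-MYB) and then FOXM1, which work with the MuvB complex at a short promoter element named CHR, often beside CCAAT boxes that NF-Y binds. VCR stops the spindle from forming, and such drugs are known to hold dividing cells in mitosis. In bulk RNA, a larger share of cells in a cell cycle phase and more RNA of a gene per cell cannot be told apart.

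The labelled cell type did not match its markers. Of 12 T lineage markers, CD247, CD5, CD28 and LCK were at 0 in all 12 libraries, CD3E reached at most 0.146 FPKM, and 8 markers stayed below 1 FPKM everywhere. CD3D (61.8 to 140 FPKM), PTPRC (8.07 to 33.1 FPKM) and TRBC1 (0 to 4.15 FPKM) were the 3 with a mean of at least 1. Among markers of other cell types, 4 of 5 erythroid genes (HBA1 at 49.4 to 190.1 FPKM, although HBA1 and HBA2 are near-identical and can share reads), 3 of 5 myeloid genes (CD33 at 20.5 to 44.4 FPKM) and 2 of 5 epithelial genes (KRT19 at 213 to 542 FPKM) had a mean of at least 1, and no B cell marker of 5 did. The libraries are therefore called by their labels only. The erythroid sum was 165 to 174 FPKM in NC+DMSO against 81.1 to 98.3 in NC+VCR, and 224 to 328 in PTPN21+DMSO against 107 to 127 in PTPN21+VCR. The epithelial sum was 277 to 347 FPKM in all DMSO libraries and 523 to 665 in all VCR libraries, and the sum of 13 mitochondrially encoded genes was 48197 to 58389 FPKM under DMSO in NC, 50018 to 52488 in PTPN21, 27275 to 31294 in NC+VCR and 30409 to 35412 in PTPN21+VCR. These sums moved with VCR in the same libraries as the genes below, and their part in the results was not tested.

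PTPN21, the gene the construct encodes, was at 0.0767, 0.0212 and 0.0934 FPKM in NC+DMSO and 0.569, 0.160 and 0.372 in NC+VCR, against 7.93, 10.5 and 8.02 in PTPN21+DMSO and 6.53, 6.34 and 4.34 in PTPN21+VCR. All PTPN21 libraries lay above all NC libraries, as the labels say. Sequencing depth is not stated in the table. The steps in which low values fall gave a relative depth of 0.883 to 1 in NC+DMSO, 1.03 to 1.10 in NC+VCR, 1.26 to 1.37 in PTPN21+VCR and 1.39 to 1.47 in PTPN21+DMSO (the first NC+DMSO library set to 1), so the PTPN21 libraries were all deeper than the NC libraries and the construct and depth cannot be told apart. Nothing in the labels says that replicates were separate cultures, so p-values measure only the spread between these libraries, which may be technical.

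The promoters were searched for letters of elements of the late cell cycle program. The stretches around the matches are given here as a description of the promoters. A link between the matches and the changes under VCR was not tested. RefSeq promoters (GRCh38.p14, 250 bases before to 50 after a start) were found for 8 of the 10 genes, 15 windows in all, and WEE1 and FOXM1 have no entry. The 250 bases before each start were searched on both strands for TTTGAA or TTTAAA, for CCAAT, and for the E2F motif TTTNNCGC. TTTGAA and TTTAAA are the CHR forms searched, and TTTAAA reads the same on both strands. Other forms of the CHR were not searched, so the matches do not show which genes lack one. No match of 1 motif overlapped a match of another in these windows, and positions count back from the start, with -1 the base before it. A CHR stood at -30 to -25 in CCNB1 and in the first CDC25C window, at -29 to -24 in CCNB2 and PLK1, and at -13 to -8 before the second CDK1 start. CCNB2, PLK1 and CDK1 held further CHR matches farther from the start. In each stretch the CHR is in capitals and the sequence reads 5′ to 3′ on the strand of the gene.
CCNB1 (chr5:69167111-69167134, plus strand): agtgcggggTTTAAAtctgaggct
CCNB2 (chr15:59105108-59105131, plus strand): gacgcggtaTTTGAAtcctggaac
PLK1 (chr16:23678851-23678874, plus strand): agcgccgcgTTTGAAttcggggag
CDC25C (chr5:138331820-138331843, minus strand): ggcggaaggTTTGAAtggtcaacg
CDK1 (chr10:60778456-60778477, plus strand): cgcggtgagTTTGAAactgctc

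The same 5 genes also held a CCAAT box in the same window. CCNB1 had 2 (the nearer one at -55 to -51), CCNB2 had 4, PLK1 had 1, CDC25C had 1 on the opposite strand in its first window, and CDK1 had 2 on the opposite strand before its second start. CCNA2 held 1 CCAAT box, also on the opposite strand, and neither CHR form searched, which does not exclude a CHR of another form. CDC25B held single CCAAT boxes before 2 of its 4 starts, and MYBL2 held none of the motifs. The nearest box of CCNA2 and of the 5 genes with a CHR is in capitals below, and it reads ATTGG where it lies on the opposite strand.
CCNB1 (chr5:69167085-69167109, plus strand): cacgaacaggCCAATaaggagggag
CCNB2 (chr15:59105082-59105106, plus strand): gcagggccgcCCAATggggcgcaag
PLK1 (chr16:23678806-23678830, plus strand): atccccgcggCCAATcagtggcgcg
CDC25C (chr5:138331875-138331899, minus strand): gcgcgcggagATTGGctgacgcagc
CDK1 (chr10:60778422-60778446, plus strand): gggctacccgATTGGtgaatccggg
CCNA2 (chr4:121823925-121823949, minus strand): gagcgctttcATTGGtccatttcaa

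Of all 35116 RefSeq windows of this length, 13.3% held TTTGAA, 11.3% held TTTAAA, 32.0% held CCAAT, 5.92% held the E2F motif and 7.64% held either CHR form together with CCAAT. CDK1 was the only gene of the 8 with the E2F motif, at 2 places before its second start. A match describes letters in a window and is not a site of binding, and a window without a match says only that these letters were not there.

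**Figure D1:**
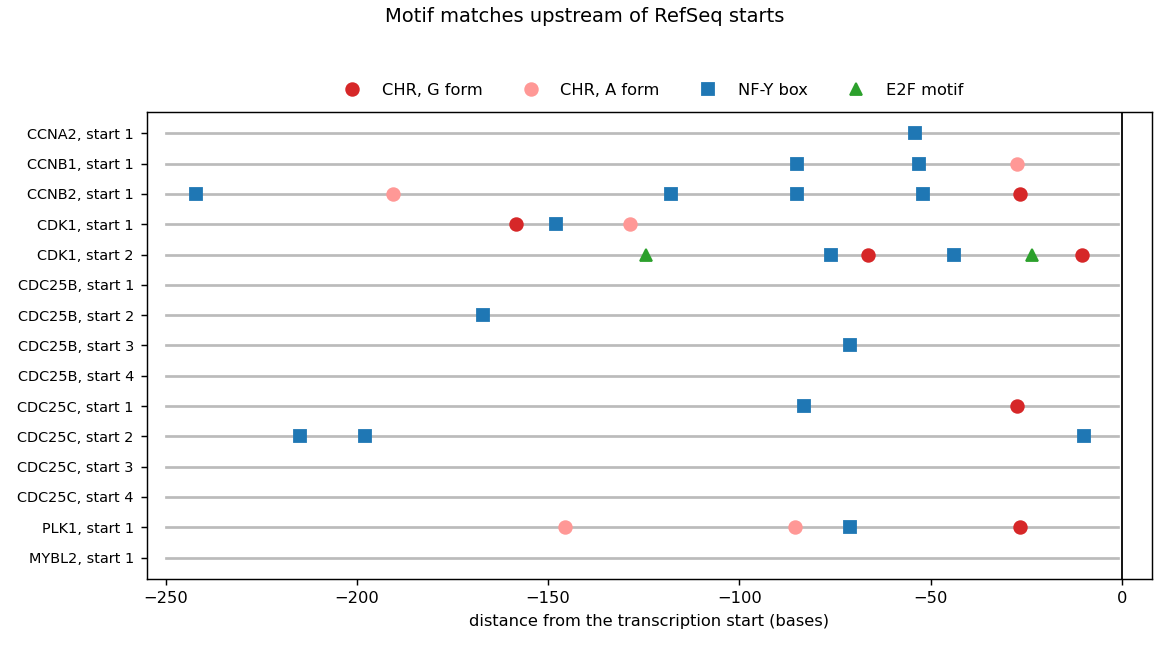
Matches of the CHR forms, the NF-Y box (CCAAT) and the E2F motif in the 250 bases before each of 15 RefSeq starts of 8 genes, plotted as distance from the start in bases. A CHR lies between -30 and -24 in CCNB1, CCNB2, PLK1 and CDC25C start 1, and MYBL2 has no symbol on its line.

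In NC+DMSO cells the 10 genes spanned about an order of magnitude in FPKM. CDK1 (68.3 ± 3.76, SD, n = 3), CCNB2 (67.3 ± 5.23), CCNB1 (60.1 ± 8.45), CCNA2 (56.2 ± 5.96) and MYBL2 (54.8 ± 6.41) formed the upper part, and neighbours in that order overlapped in their libraries. PLK1 followed at 33.1 ± 2.77 FPKM and was apart from the genes above and below it. WEE1 (14.4 ± 2.50) and CDC25C (13.0 ± 0.76) overlapped, and FOXM1 (7.28 ± 2.59) and CDC25B (5.98 ± 0.869) were the lowest and overlapped too. Under VCR the order changed at the top. CCNB1 was first in both VCR groups, and its libraries were above all of the next gene, CCNB2. In NC+VCR, PLK1 came after CCNB2 and overlapped with it, whereas in PTPN21+VCR the gene after CCNB2 was CDK1.

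**Figure D2:**
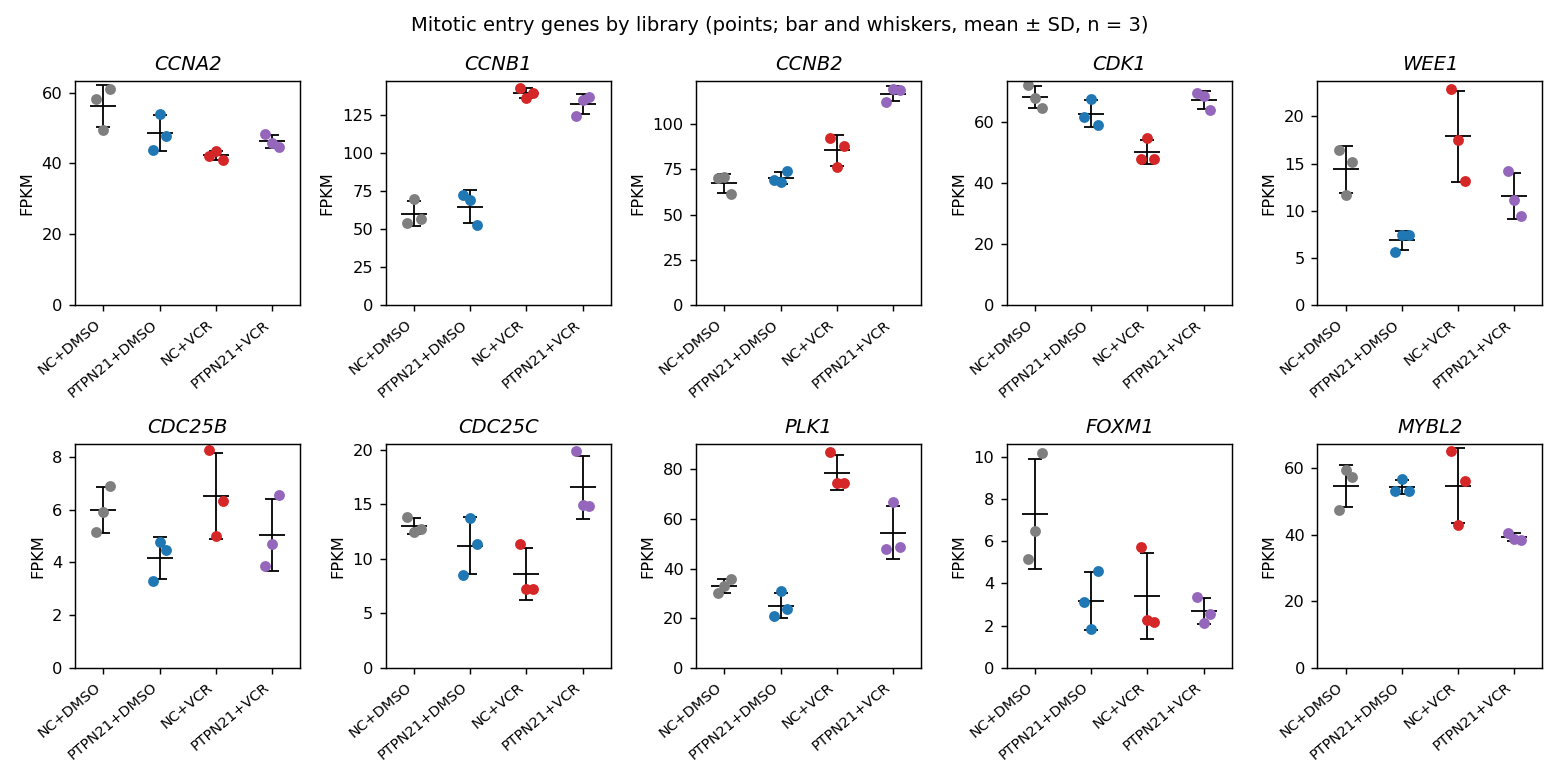
FPKM of the 10 mitotic entry genes in each of the 12 libraries (points), with the mean and SD of the 3 libraries of a group, each panel on its own linear axis from 0. CCNB1 and PLK1 are higher in every VCR library than in every DMSO library. CDK1 is at 48.0 to 54.9 FPKM in NC+VCR and 64.1 to 69.5 FPKM in PTPN21+VCR, and its interaction did not pass (limma adjusted p = 0.190).

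The first comparison asked what VCR changed in control cells. The B type cyclins and PLK1 were higher in NC+VCR than in NC+DMSO, and CCNA2, CDK1 and FOXM1 were lower. Of the 10 genes, 6 passed an adjusted p of 0.05 (limma, adjusted over 11591 genes), 3 in each direction, against 36.2% of all genes tested, of which 7.91% were higher and 28.3% lower. Of the 10 genes, 4 were higher and 0 lower after median ratio scaling, 3 and 0 after quantile normalization, 2 and 0 with only these 6 libraries fitted, and 2 and 4 after TPM scaling. Of all 11591 genes, 3063 were called after median ratio scaling (1732 higher) and 2933 after quantile normalization (1540 higher). With only these 6 libraries fitted 2674 were called (629 higher), and after TPM scaling 4553 (743 higher). CDC25B, CDC25C, WEE1 and MYBL2 did not pass. The libraries of 6 genes did not overlap (CDC25C in place of FOXM1), against 44.1% of all genes. The median of all genes tested was itself -0.36 on the log2 scale in this comparison and -0.03 after median ratio scaling, so falls in particular are to be read against that shift.

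CCNB1 encodes cyclin B1, the main mitotic partner of CDK1. Its FPKM were 54.1, 69.8 and 56.3 in NC+DMSO and 143, 136 and 139 in NC+VCR. The groups were far apart, with the lowest VCR library well above the highest DMSO library. The difference was 1.21 on the log2(FPKM + 1) scale (SE 0.137, limma adjusted p = 7e-05).

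PLK1, the polo-like kinase that promotes activation of CDK1, behaved like CCNB1. Its FPKM were 30.3, 33.1 and 35.8 in NC+DMSO and 87.0, 74.6 and 74.5 in NC+VCR, without overlap. The difference was 1.23 (SE 0.170, limma adjusted p = 0.00028), and CCNB1 and PLK1 passed in 22 of 22 alternative settings.

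CCNB2, the second B type cyclin, moved less. Its FPKM were 69.9, 70.6 and 61.2 in NC+DMSO and 92.5, 76.1 and 88.0 in NC+VCR. The libraries did not overlap, although the lowest VCR library was close to the highest DMSO library. The difference was 0.34 (SE 0.11, limma adjusted p = 0.0303). It passed in 15 of 22 alternatives, and the adjusted p was 0.0897 without NC+DMSO replicate 3, 0.0947 without NC+VCR replicate 1, 0.0754 without NC+VCR replicate 3, 0.0985 after TPM scaling and 0.114 with only these 6 libraries fitted.

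CDK1, the kinase itself, was lower while its cyclins of the B type were higher. Its FPKM were 72.2, 67.9 and 64.8 in NC+DMSO and 48.0, 54.9 and 48.1 in NC+VCR, without overlap. The difference was -0.43 (SE 0.108, limma adjusted p = 0.00892). After median ratio scaling it was -0.04 (adjusted p = 0.852), close to the median gene at -0.03. After quantile normalization it was -0.27 (adjusted p = 0.0895), against -0.02 for the median gene. With only these 6 libraries fitted, the adjusted p was 0.0531.

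CCNA2 encodes cyclin A2, which is degraded early in mitosis. Its FPKM were 58.3, 49.5 and 60.9 in NC+DMSO and 42.1, 43.6 and 41.0 in NC+VCR, all of the VCR libraries being lower. The difference was -0.40 (SE 0.121, limma adjusted p = 0.0229), and -0.01 (adjusted p = 0.98) after median ratio scaling. The call was also lost without NC+DMSO replicate 1 (adjusted p = 0.0667), NC+DMSO replicate 3 (0.0707) or NC+VCR replicate 3 (0.0572), and with only these 6 libraries fitted (0.0799).

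FOXM1, the transcription factor of the G2/M program, had FPKM of 5.17, 6.49 and 10.2 in NC+DMSO and 5.73, 2.28 and 2.16 in NC+VCR. NC+VCR replicate 1 lay within the range of the controls, so the groups overlapped. The difference was -0.96 (SE 0.347, limma adjusted p = 0.0469), and it passed in 8 of 21 alternatives, with adjusted p from 0.0110 to 0.250 over all of them. The other transcription factor, MYBL2, had FPKM of 47.5, 59.4 and 57.5 in NC+DMSO and 65.3, 42.8 and 56.2 in NC+VCR, with a difference of -0.01 (95% interval -0.34 to 0.31) that was 0.38 after median ratio scaling.

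The opposing enzymes that set the phosphate on CDK1 did not pass. WEE1 had FPKM of 16.5, 11.6 and 15.1 in NC+DMSO and 22.9, 17.5 and 13.2 in NC+VCR, a difference of 0.27 (limma adjusted p = 0.360) that passed after median ratio scaling (0.65, adjusted p = 0.0399). CDC25C had FPKM of 13.9, 12.4 and 12.7 in NC+DMSO and 11.3, 7.25 and 7.22 in NC+VCR. All 3 VCR libraries were lower, and the difference of -0.57 (SE 0.213) had an adjusted p of 0.0545. It was -0.20 (adjusted p = 0.485) after median ratio scaling, and 4 of 22 alternatives passed, with adjusted p from 0.0176 to 0.485 over all of them. CDC25B was at 5.15, 5.91 and 6.89 FPKM in NC+DMSO and 8.26, 4.999 and 6.34 in NC+VCR, which overlapped (0.09, adjusted p = 0.778).

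The second comparison asked the same of PTPN21 cells. CCNB1, CCNB2, PLK1 and WEE1 were higher in PTPN21+VCR than in PTPN21+DMSO, and MYBL2 was lower. These were 5 of the 10 genes (5 higher and 0 lower after median ratio scaling or quantile normalization, 3 and 1 after TPM scaling), against 28.5% of all genes tested, with 9.22% of all genes higher and 19.3% lower. Of all 11591 genes, 3007 were called after median ratio scaling (1539 higher), 3190 after quantile normalization (1645 higher) and 3132 after TPM scaling (941 higher). The libraries of 6 genes did not overlap (these 5 and CDC25C), against 50.4% of all genes. The median of all genes was -0.17, and -0.02 after median ratio scaling.

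CCNB1 had FPKM of 72.3, 69.2 and 52.7 in PTPN21+DMSO and 124, 135 and 137 in PTPN21+VCR. The VCR libraries were all above the DMSO libraries, and the difference was 1.03 (SE 0.137, limma adjusted p = 0.000236). PLK1 had FPKM of 20.9, 30.9 and 23.5 in PTPN21+DMSO and 47.8, 66.8 and 48.7 in PTPN21+VCR, again without overlap, with a difference of 1.09 (SE 0.170, adjusted p = 0.000676). CCNB2 had FPKM of 69.2, 67.8 and 73.9 in PTPN21+DMSO and 112, 119 and 119 in PTPN21+VCR. The 3 VCR values stood close together and well above the DMSO values, with a difference of 0.72 (SE 0.11, adjusted p = 0.000559). These 3 genes passed in 22 of 22 alternatives.

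WEE1 was at 5.67, 7.48 and 7.42 FPKM in PTPN21+DMSO and at 14.2, 11.1 and 9.41 in PTPN21+VCR. The groups did not overlap, and the difference was 0.67 (SE 0.225, limma adjusted p = 0.0427). WEE1 passed in 13 of 22 alternatives, and without PTPN21+VCR replicate 1 the difference was 0.52 (adjusted p = 0.155). The call was also lost without PTPN21+VCR replicate 2, NC+DMSO replicate 1 or any 1 of the PTPN21+DMSO libraries (adjusted p from 0.0502 to 0.14).

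MYBL2 was at 53.1, 56.8 and 53.3 FPKM in PTPN21+DMSO and at 40.6, 38.9 and 38.6 in PTPN21+VCR. Both groups were tight and apart, and the difference was -0.46 (SE 0.15, limma adjusted p = 0.0396). It was lost without any 1 of these 6 libraries (adjusted p from 0.0771 to 0.108) and after both median ratio (0.183) and quantile scaling (0.16), and passed in 11 of 22 alternatives.

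CDK1 and CCNA2, which were lower under VCR in control cells, did not pass here. CDK1 was at 61.6, 67.7 and 59.3 FPKM in PTPN21+DMSO and at 69.5, 68.5 and 64.1 in PTPN21+VCR, a difference of 0.10 (95% interval -0.14 to 0.34). CCNA2 was at 43.9, 54.0 and 47.8 FPKM against 48.2, 45.7 and 44.7, a difference of -0.07 (95% interval -0.33 to 0.20). CDC25C was at 8.52, 13.7 and 11.3 FPKM in PTPN21+DMSO and 19.8, 14.95 and 14.8 in PTPN21+VCR. All VCR libraries were higher, opposite to control cells, with a difference of 0.54 (SE 0.213) and a limma adjusted p of 0.0799, and it passed after median ratio scaling (0.71, adjusted p = 0.0214) and quantile normalization (0.71, adjusted p = 0.0193). FOXM1 (-0.14, 95% interval -0.90 to 0.61) and CDC25B (0.21, 95% interval -0.30 to 0.72) overlapped between the groups.

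**Figure D3:**
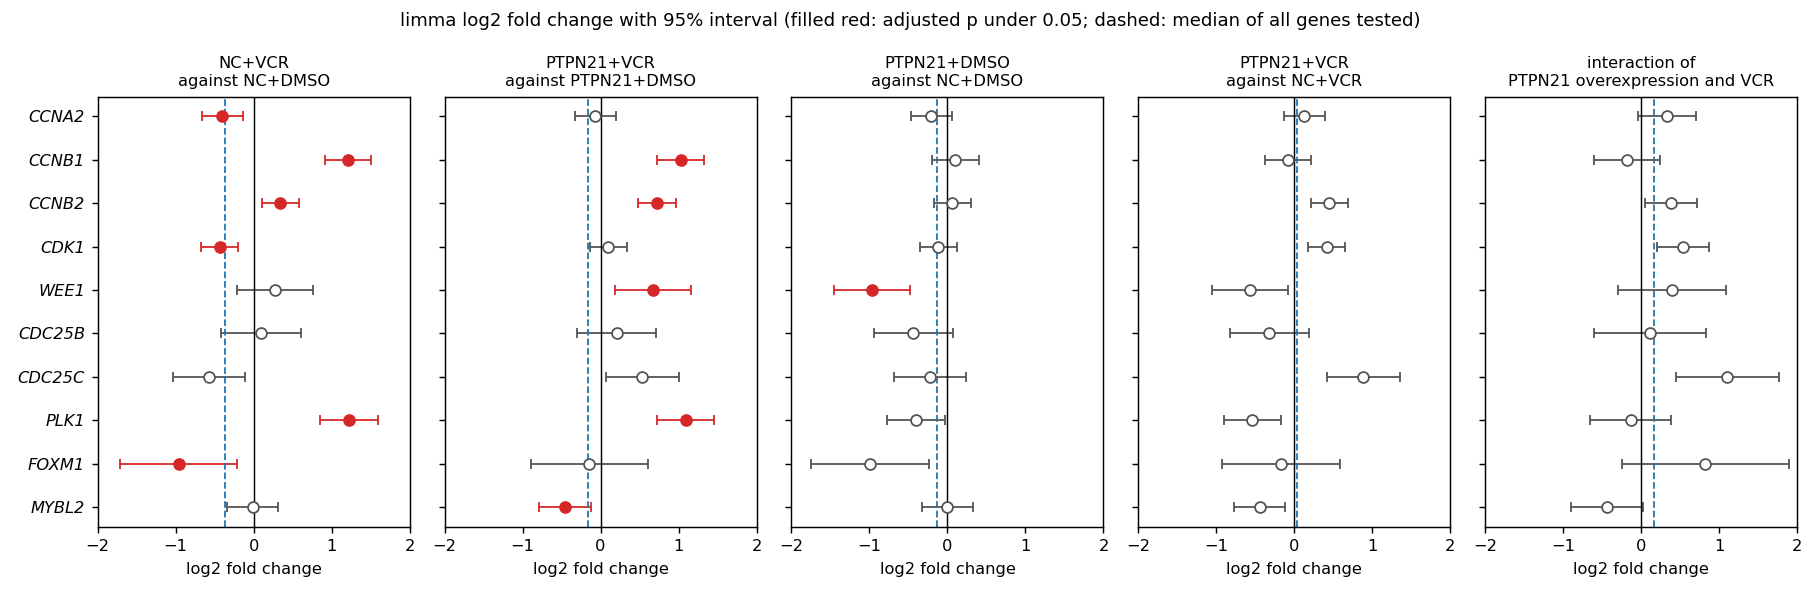
limma log2 fold changes of log2(FPKM + 1) with 95% intervals for the 10 genes in the 5 comparisons, filled red where the adjusted p was under 0.05, with the median of all 11591 genes dashed. CCNB1 and PLK1 lie near 1 in both VCR comparisons, and CDC25C lies at -0.57 in NC and 0.54 in PTPN21 cells.

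The third comparison asked what PTPN21 changed without VCR. WEE1 was the 1 gene of the 10 that passed, against 6.34% of all genes tested, with 3.69% lower. Its FPKM were 16.5, 11.6 and 15.1 in NC+DMSO and 5.67, 7.48 and 7.42 in PTPN21+DMSO, so each PTPN21 library was below each control library. The difference was -0.97 (SE 0.225, limma adjusted p = 0.0311). It passed in 13 of 22 alternatives, and the adjusted p was 0.0963 without NC+DMSO replicate 1, 0.117 without NC+DMSO replicate 3, 0.132, 0.0536 and 0.0753 without PTPN21+DMSO replicates 1, 2 and 3, and 0.0554 after median ratio scaling. With 1 library left out the difference ranged from -1.10 to -0.85.

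FOXM1 showed a similar size with more spread. It was at 5.17, 6.49 and 10.2 FPKM in NC+DMSO and 3.10, 1.85 and 4.58 in PTPN21+DMSO, without overlap, and the difference was -0.996 (SE 0.347, limma adjusted p = 0.101). CDC25B was lower in all 3 PTPN21 libraries as well (-0.44, adjusted p = 0.264), so 3 of the 10 genes did not overlap, against 33.4% of all genes. PLK1 overlapped between the groups, with a difference of -0.40 and an adjusted p of 0.165. The differences for CCNB1 (0.10, 95% interval -0.20 to 0.40), CCNB2 (0.06, -0.17 to 0.30), CDK1 (-0.12, -0.35 to 0.12) and MYBL2 (0.00, -0.33 to 0.32) were small, and those of CCNA2 (-0.21) and CDC25C (-0.22) did not pass either.

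The fourth comparison set the 2 VCR groups against each other, the pair that the study examined for a change in apoptosis and cell cycle arrest. None of the 10 genes passed (limma, adjusted p under 0.05), against 1.82% of all genes, while 6 had an unadjusted p under 0.05, against 17.1% of all genes. CDC25C had the largest difference, with 11.3, 7.25 and 7.22 FPKM in NC+VCR and 19.8, 14.95 and 14.8 in PTPN21+VCR. The libraries did not overlap, and the difference was 0.88 (SE 0.213, limma adjusted p = 0.0585). CCNB2 was higher in each PTPN21+VCR library (112 to 119 FPKM) than in each NC+VCR library (76.1 to 92.5 FPKM), by 0.45 (SE 0.11, adjusted p = 0.0615). CDK1 was higher too, at 64.1 to 69.5 against 48.0 to 54.9 FPKM, by 0.42 (SE 0.108, adjusted p = 0.0734).

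With a minimum mean of 5 FPKM, which tests fewer genes, CCNB2, CDC25C and CDK1 passed (adjusted p = 0.0393, 0.0393 and 0.0457). At that minimum 344 of 6675 genes were called, against 211 of 11591 before. PLK1 and MYBL2 lay the other way. PLK1 was at 87.0, 74.6 and 74.5 FPKM in NC+VCR and 47.8, 66.8 and 48.7 in PTPN21+VCR, without overlap (-0.54, limma adjusted p = 0.126). MYBL2 was at 65.3, 42.8 and 56.2 FPKM against 40.6, 38.9 and 38.6, again without overlap (-0.45, adjusted p = 0.148). WEE1 was lower on average and overlapped (-0.57, adjusted p = 0.214). CCNB1 differed by -0.08 (95% interval -0.38 to 0.22), CCNA2 by 0.13 (-0.14 to 0.39), CDC25B by -0.32 (-0.83 to 0.19) and FOXM1 by -0.18 (-0.93 to 0.58). In all, 6 of the 10 genes did not overlap between the VCR groups, against 22.5% of all genes. By Western blot, which measures protein, the study reported less cyclin B1 under VCR and more with PTPN21. From co-immunoprecipitation it described elevated Cdk1 with PTPN21. The RNA of CCNB1 lay the other way under VCR (1.21 in NC and 1.03 in PTPN21 cells) and did not pass between the VCR groups.

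The interaction asked whether VCR acted differently in PTPN21 and control cells. No gene of the 10 passed (limma), against 0.129% of all genes, and 3 had an unadjusted p under 0.05, against 14% of all genes. These were CDC25C (1.10, SE 0.302, adjusted p = 0.176), CDK1 (0.53, SE 0.153, adjusted p = 0.190) and CCNB2 (0.38, SE 0.155, adjusted p = 0.305). The median of all genes was 0.17 in the interaction and -0.01 after median ratio scaling. For CCNB1 and PLK1, which rose in both cell populations, the interaction was -0.18 (95% interval -0.60 to 0.24) and -0.14 (-0.66 to 0.39). A call in 1 population and not in the other, as for CDK1, CCNA2, FOXM1, WEE1 and MYBL2, is thus not shown to be a difference between them.

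A ratio of 2 genes within a library removes the scaling between libraries, except for the 1 added to each FPKM, which weighs more on low genes such as FOXM1 and CDC25B. On the log2 scale of FPKM + 1, CCNB1 to CDK1 was -0.41, 0.04 and -0.20 in NC+DMSO against 1.55, 1.29 and 1.51 in NC+VCR, and 0.23, 0.03 and -0.17 in PTPN21+DMSO against 0.83, 0.96 and 1.08 in PTPN21+VCR. The cyclin exceeded its kinase in every VCR library, and more so in each NC+VCR library than in each PTPN21+VCR library. The means differed by 1.64 under VCR in NC cells, by 0.93 in PTPN21 cells and by -0.49 between the VCR groups (exact permutation test, p = 0.1 each, the smallest that 3 against 3 can give, and 0.16 adjusted over 24 ratio tests).

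CCNB1 to CCNB2 separated the 2 B type cyclins. The ratio was 0.62, 0.83 and 0.66 in NC+VCR and 0.15, 0.17 and 0.20 in PTPN21+VCR, against -0.36 to -0.02 in NC+DMSO and -0.48 to 0.06 in PTPN21+DMSO. The VCR groups did not overlap with each other, nor with their own DMSO groups. CCNA2 to CCNB1 had a mean of -0.09 in NC+DMSO and -1.70 in NC+VCR, and of -0.40 in PTPN21+DMSO and -1.49 in PTPN21+VCR, so the ratio was lower under VCR in both populations without overlap.

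CDC25C to WEE1, a phosphatase that activates CDK1 over the kinase that inhibits it, was -0.23, 0.09 and -0.24 in NC+DMSO and 0.51, 0.79 and 0.55 in PTPN21+DMSO. It was -0.95, -1.17 and -0.79 in NC+VCR and 0.45, 0.40 and 0.60 in PTPN21+VCR. Every PTPN21 library had more CDC25C than WEE1 and every NC+VCR library had less. The difference between the VCR groups was 1.46 and that between the DMSO groups 0.75 (exact permutation test, p = 0.1, 0.16 adjusted). Between VCR and DMSO the ratio differed by -0.84 in NC cells without overlap and by -0.13 in PTPN21 cells with overlap. CDC25B to WEE1 did not overlap only between the DMSO groups (0.53 higher with PTPN21). FOXM1 to MYBL2 was lower in PTPN21+DMSO (by 0.99) and in NC+VCR (by 0.95) than in NC+DMSO without overlap.

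**Figure D4:**
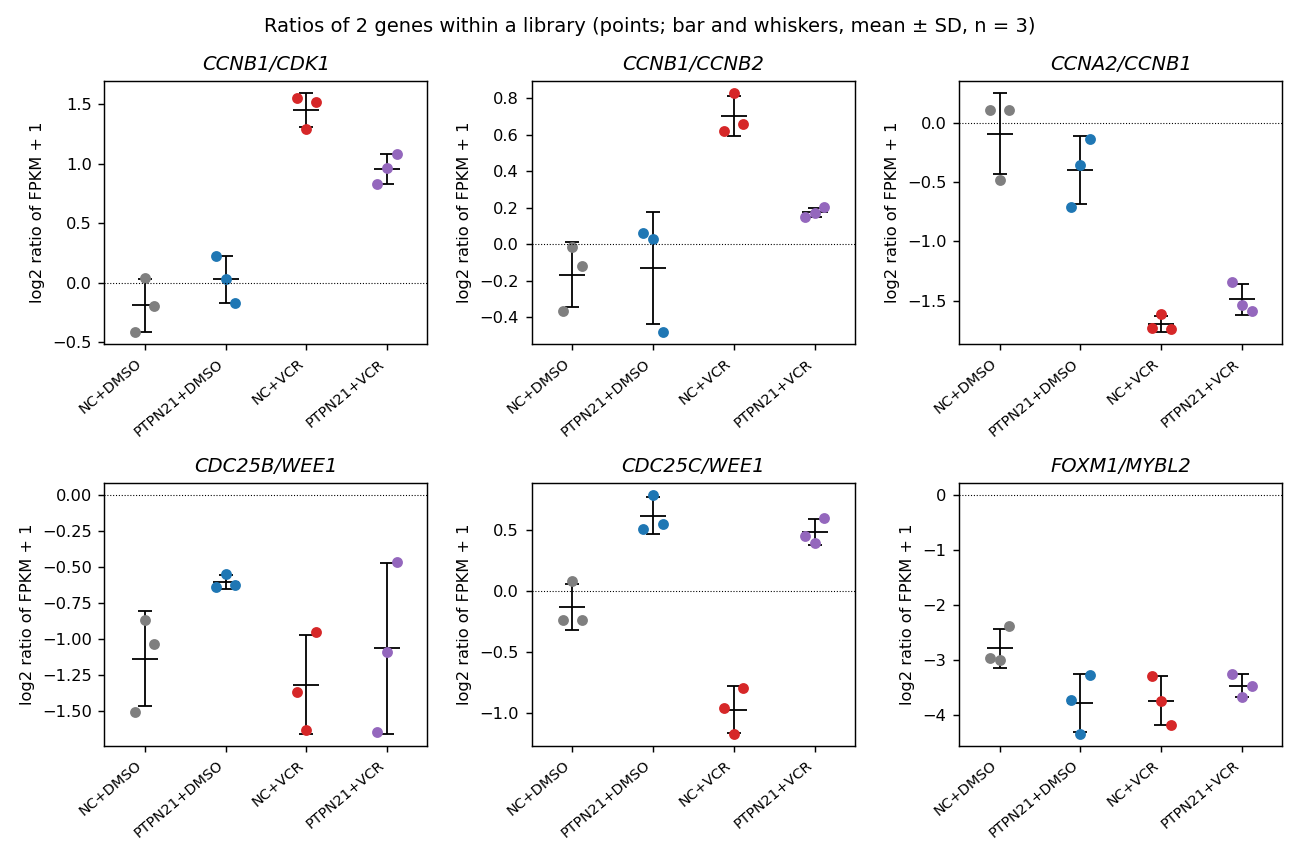
log2 ratio of FPKM + 1 of 2 genes in each of the 12 libraries (points), with the mean and SD of each group of 3. CCNB1 over CDK1 is above 0 in all 6 VCR libraries, and CDC25C over WEE1 is above 0 in all 6 PTPN21 libraries and below 0 in all 3 NC+VCR libraries.

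Across the 12 libraries, CCNB1 ran closest to PLK1 (Pearson r of log2 values 0.88) and CCNB2 (0.79), and CDK1 to CDC25C (0.72), while CCNB1 and CCNA2 ran in opposite directions (-0.76). WEE1 ran with PLK1 (0.70) and CDC25B (0.62). These are descriptions over 12 libraries that share 4 groups and are not tests. The genes whose profile was most like the mean standardised profile of the 10 were ARHGEF7 (r = 0.91), NBPF8 (0.90), ZMYND8 (0.89), RAP1A (0.89) and FAM174A (0.89), each with its lowest group mean in PTPN21+DMSO. That mean combines genes that ran in opposite directions, such as CCNB1 and CCNA2, so likeness to it is not likeness to each of the 10.

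Other genes of the same machinery were counted from lists. Under VCR, 7.91% of all genes tested were higher and 28.3% lower in NC cells, against 9.22% and 19.3% in PTPN21 cells. The medians over all genes were -0.36 and -0.17. After median ratio scaling, 1732 of 3063 genes called were higher in NC cells and 1539 of 3007 in PTPN21 cells. Of 20 tested further regulators of mitotic entry, VCR raised 3 and lowered 6 in NC cells (median -0.11) and raised 5 and lowered 4 in PTPN21 cells (median 0.20). After median ratio scaling these counts were 5 and 0, and 7 and 3. CKS2, a small subunit that binds CDK1, had the strongest evidence, at 52.9 ± 12.1 FPKM in NC+DMSO and 242 ± 8.23 in NC+VCR (2.20, limma adjusted p = 1.27e-06), and 1.79 higher in PTPN21 cells. CKS2 was also 1.01 higher in PTPN21+DMSO than in NC+DMSO (limma adjusted p = 0.00535). CDKN1A, the CDK inhibitor p21, went from 0.656 ± 0.392 to 4.91 ± 1.30 FPKM (1.84, adjusted p = 0.000459), and was 1.36 higher in PTPN21 cells (adjusted p = 0.00351). ENSA, an inhibitor of the phosphatase that opposes CDK1, fell by 0.48 in NC cells and by 0.86 in PTPN21 cells, although in NC cells it was -0.08 after median ratio scaling (adjusted p = 0.669). GADD45A, an inhibitor of CDK1 that the study followed, was at 110.1 ± 18.1 FPKM in NC+DMSO, 84.4 ± 5.65 in NC+VCR, 88.2 ± 10.9 in PTPN21+DMSO and 57.2 ± 4.82 in PTPN21+VCR. It fell by 0.61 under VCR in PTPN21 cells (limma adjusted p = 0.00671). The differences under VCR in NC cells (-0.37, adjusted p = 0.0567, with a difference of 0.03 and an adjusted p of 0.89 after median ratio scaling), with PTPN21 under DMSO (-0.31, adjusted p = 0.186) and with PTPN21 under VCR (-0.55, adjusted p = 0.067) did not pass, nor did the interaction (-0.24, adjusted p = 0.591). The difference between the VCR groups passed at a minimum mean of 5 FPKM (adjusted p = 0.0436) and without NC+DMSO replicate 3 (adjusted p = 0.0331). By Western blot, which measures protein, the study reported a rise of GADD45A under VCR in control cells, which these RNA values did not show. It also reported less GADD45A RNA and protein with PTPN21 under VCR, the RNA by RT-qPCR and by its own sequencing of these groups. The difference of -0.55 between the VCR groups lay in that direction and did not pass at a minimum mean of 1 FPKM (limma adjusted p = 0.067).

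The MuvB complex and its partners, with E2F4, LIN54 and NF-Y subunits, held no gene that rose among 13 tested. In NC cells 7 were lower (median -0.70), against 28.3% of all genes, and in PTPN21 cells 3 were lower (median -0.31), against 19.3%. After median ratio scaling 1 was lower in NC cells, and in PTPN21 cells 1 was higher and 3 lower. E2F4 was -0.77 in NC cells (limma adjusted p = 0.0047) and -0.85 in PTPN21 cells (0.00335), NFYC -0.71 and -0.73, and LIN54 -1.09 and -0.26, the last without passing. In NC cells E2F4 and NFYC no longer passed after median ratio scaling.

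Of 18 tested genes for protein degradation by the APC/C, the ubiquitin ligase that destroys mitotic cyclins, 2 rose and 7 fell in NC cells (median -0.34). In PTPN21 cells 3 rose and 4 fell (median -0.23). The falls stood against 28.3% and 19.3% of all genes, and the medians against -0.36 and -0.17. After median ratio scaling 3 rose and 3 fell in each population. The risers included CDC20, an activator of the APC/C, at 22.9 ± 0.591 FPKM in NC+DMSO and 44.1 ± 6.39 in NC+VCR (0.91 in NC and 1.03 in PTPN21 cells). UBE2S, which elongates the ubiquitin chain, was 1.77 higher in NC cells and 0.57 in PTPN21 cells (adjusted p = 0.0467, and 0.0538 to 0.141 without NC+VCR replicate 3 or any 1 of the 6 libraries compared). ANAPC13, a subunit, was -1.28 in NC and -0.92 in PTPN21 cells. Without VCR, UBE2S was already 1.26 higher in PTPN21 than in NC cells (limma adjusted p = 0.00821). Between the VCR groups UBE2S differed by 0.06 (adjusted p = 0.911), and its interaction did not pass (-1.20, adjusted p = 0.118).

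Of 20 other late cell cycle genes, 4 rose (against 7.91% of all genes) and 3 fell in NC cells (median -0.01). In PTPN21 cells 8 rose (against 9.22%) and 1 fell (median 0.22). After median ratio scaling these counts were 9 and 0, and 10 and 1. The mitotic kinesin KIF20A (1.15 and 1.08), the mitotic spindle gene HMMR (1.02 and 1.52) and KIF23 (0.59 and 0.65) rose in both populations. Of 20 G1/S genes, none rose. In NC cells 16 fell (median -0.79), against 28.3% of all genes, and in PTPN21 cells 14 fell (median -0.68), against 19.3%. After median ratio scaling 9 and 8 of these 20 genes fell. GINS2 (-1.58 and -1.36) and CDC6 (-1.11 and -0.99), which serve DNA replication, fell in both. Beside these, the 10 mitotic entry genes had a median of 0.04 in NC cells and 0.37 in PTPN21 cells, against -0.36 and -0.17 over all genes tested.

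**Figure D5:**
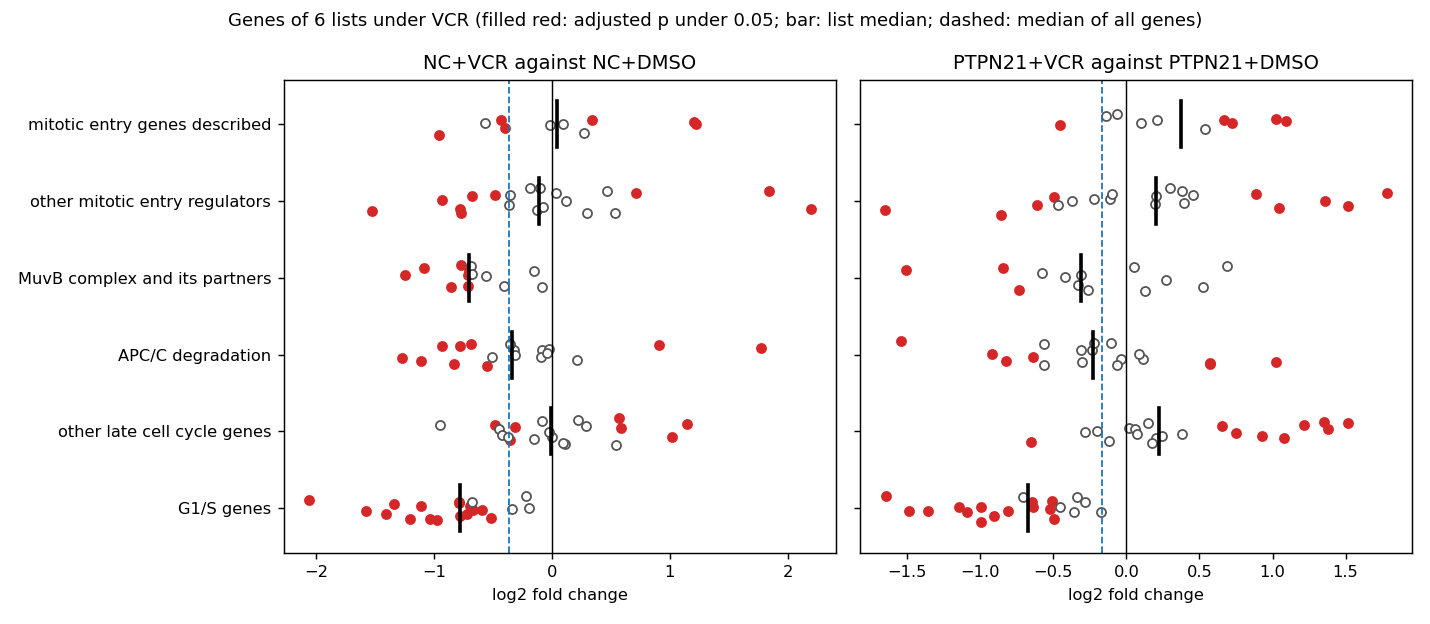
log2 fold change under VCR in NC cells (left) and PTPN21 cells (right) for the genes of 6 lists, filled red where the limma adjusted p was under 0.05, with the list median as a bar and the median of all genes dashed. The G1/S genes have medians of -0.79 and -0.68, and the other late cell cycle genes -0.01 and 0.22.

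Without VCR, the other late cell cycle genes and the MuvB partners lay lower in PTPN21 than in NC cells by their medians, -0.51 and -0.56 against -0.14 over all genes. Of 20 late genes 4 fell, against 3.69% of all genes, and the count was 9 after TPM scaling, 6 after quantile normalization, 1 after median ratio scaling and 0 with only the groups compared. Of all 11591 genes, 1062 were called after TPM scaling (223 higher), 674 after quantile normalization (367 higher) and 554 after median ratio scaling (421 higher). With only the groups compared, 40 were called (30 higher). Of 13 MuvB partners 1 rose and 2 fell, with 4 lower after TPM scaling, 1 after quantile normalization and 0 after median ratio scaling. Among further mitotic entry regulators 1 rose and 1 fell of 20, among APC/C genes 2 rose of 18, and among G1/S genes 2 fell of 20. Of all genes tested, 6.34% were called in this comparison. Between the VCR groups, 1 further mitotic entry regulator rose, 1 late gene fell and 1 G1/S gene fell, against 1.82% of all genes called. No gene of these 5 lists passed in the interaction.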

How the data were processed

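RNA from 12 libraries labelled Jurkat was sequenced, and the authors deposited 1 table of FPKM for 60671 genes with human Ensembl identifiers, made by an external company. The submitters' processing notes name fastp and Bowtie2 and the mouse build mm10. The counting program, the annotation and the use of strand are not given in the sources used here, so the build of the values is uncertain and genes that share sequence cannot be separated. FPKM is scaled to the total of each library (sums of 520098 to 629364), so a rise in abundant genes lowers others. Replicates correlated at 0.939 to 0.976. Groups came from the labels, and all value columns matched a sample.

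The members and gene lists were chosen with earlier results of these data known. Values were tested as log2(FPKM + 1), a scale that understates changes of low genes, in the 11591 genes that averaged 1 FPKM or more, using limma 3.58.1 (R 4.3.3) with an intensity trend on the means of the 4 groups, without a block. Benjamini-Hochberg adjustment covered all genes tested, with a threshold of 0.05. The method was tested on simulated data. Ratios within libraries were compared by a two-sided exact permutation test. Alternatives changed the pseudocount (0.1), the filter (none, or a minimum mean of 5), the scaling (TPM, median ratio, quantile), limma (no trend, robust moderation, a replicate block, a fit to the compared groups alone) and the libraries (each left out once). Besides the 10 genes, PTPN21 and GADD45A, the text names from each of 5 lists the 3 genes with the smallest p in NC+VCR against NC+DMSO, and the 5 genes most like the members' mean profile. A gene that this rule names is not reported here. Promoters came from RefSeq GRCh38.p14. Plots were made with Python 3.11.15 and matplotlib 3.10.9.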

Additional observations from a re-analysis of the deposited data

Results flagged for a closer look

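CDC25C lay in opposite directions under VCR in the 2 cell populations. In NC cells every VCR library was below every DMSO library, with a difference of -0.57 on the log2(FPKM + 1) scale, and in PTPN21 cells every VCR library was above every DMSO library, with a difference of 0.54. Neither passed on its own (limma adjusted p = 0.0545 and 0.0799). After median ratio scaling the difference in NC cells shrank to -0.20 (adjusted p = 0.485) and that in PTPN21 cells was 0.71 (adjusted p = 0.0214), and quantile normalization gave -0.21 (0.477) and 0.71 (0.0193). The test of the difference itself gave 1.10 (SE 0.302, limma adjusted p = 0.176), 0.91 after median ratio scaling (adjusted p = 0.219), and 0.94 to 1.30 with 1 library left out (adjusted p from 0.125 to 0.372).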

How the results depend on the processing

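Of 874 values recomputed under planned settings, 809 kept their direction and side of the threshold, 37 no longer passed, 15 newly passed and 13 changed sign. With 1 library left out these counts were 1019, 38, 7 and 16 of 1080, and an arm with 2 libraries was assumed to vary like the others. Where the library left out was outside the 2 groups compared, the difference itself could not change, only its SE and adjusted p. This holds also for the alternatives counted per gene above. The number of the 10 genes past the threshold in NC+VCR against NC+DMSO was 6, and 3 after quantile normalization, 2 with only the groups compared and 3 to 6 with 1 library left out (3224 to 4024 of 11591 genes called). In PTPN21+VCR against PTPN21+DMSO it was 5, and 3 without a filter (2787 of 28170 genes called) and 3 to 5 with 1 library left out (2353 to 3619 of 11591). In PTPN21+DMSO against NC+DMSO it was 1 (735 of 11591 genes called). It was 0 without a filter (177 of 28170), after median ratio scaling (554 of 11591) and with only the groups compared (40 of 11591). With 1 library left out it was 0 to 1 (67 to 1345 of 11591). In PTPN21+VCR against NC+VCR it was 0, and 0 to 1 with 1 library left out (43 to 354 of 11591). In that comparison it was 3 at a minimum mean of 5 FPKM (344 of 6675 genes called) and 1 after quantile normalization (164 of 11591). The interaction gave 0 under each alternative run, and FOXM1 falls below the minimum of 5. Some alternatives test fewer genes or libraries, and the cause of these changes in number was not tested.

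Scaling moved the share of higher genes among all called from 21.9% to 56.5% (median ratio) in NC+VCR, from 32.3% to 51.2% in PTPN21+VCR, and from 41.8% to 76.0% in PTPN21+DMSO, each against its reference, while TPM scaling moved it to 16.3%, 30.0% and 21.0%. Signs changed in small differences. In NC+VCR against NC+DMSO, MYBL2 was 0.38 (median ratio) and 0.18 (quantile), and GADD45A 0.0289 (median ratio). In PTPN21+VCR against PTPN21+DMSO, CCNA2 was 0.115 and 0.0722 under the same 2 scalings and FOXM1 0.0440 (quantile). In PTPN21+DMSO against NC+DMSO, TPM scaling gave -0.0451 for CCNB1 and -0.0822 for CCNB2, median ratio scaling 0.0807 for CDK1 and 0.19 for MYBL2, and quantile normalization 0.0564 for MYBL2. In the interaction CDC25B was -0.0730 (median ratio) and -0.101 (quantile). With 1 library left out, CDC25B ranged from -0.0667 to 0.25 and MYBL2 from -0.15 to 0.15 in NC+VCR against NC+DMSO, CCNA2 from -0.135 to 0.0113 and FOXM1 from -0.392 to 0.0932 in PTPN21+VCR against PTPN21+DMSO, CCNB2 from -0.00057 to 0.10 and MYBL2 from -0.102 to 0.0565 in PTPN21+DMSO against NC+DMSO, FOXM1 from -0.37 to 0.18 between the VCR groups, and CDC25B from -0.0586 to 0.275 and PLK1 from -0.289 to 0.0177 in the interaction. The ratio CCNB1/CCNB2 ranged from -0.0619 to 0.212 between the DMSO groups and CDC25B/WEE1 from -0.0499 to 0.54 between the VCR groups.

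Replicate numbers did not pair the libraries, since the deviations of 18 same-numbered pairs correlated at -0.145 to 0.0583 and 0 were above 0.1. With the replicate block, 3 of the 10 genes passed in PTPN21+VCR against PTPN21+DMSO, where 2956 of all 11591 genes did. In PTPN21+DMSO against NC+DMSO 0 of the 10 passed, where 242 of all genes did, and WEE1 had an adjusted p of 0.0544. In NC+VCR against NC+DMSO, CCNB2 had an adjusted p of 0.056 with the block. The number of fragments behind a value is unknown.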
